A study of Rattus norvegicus with 15 samples.

Results

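The rat mammary gland that had been through a full-term pregnancy, but never suckled a litter, was compared gene by gene with the gland of rats that had never been pregnant. The members are samples chosen by their labels, 5 pregnancy arrays and 5 control arrays, which are 10 of the 15 arrays of the series. All rats were females of the Lewis strain, post-pubertal virgins of 3 months at the start, and each array holds total RNA of the left inguinal gland of 1 rat. Pregnancy rats delivered after 21 to 23 days, their pups were removed within 4 to 6 hours, and they carried sham capsules of cellulose. Control rats carried the same sham capsules and had neither pregnancy nor hormones. The other group, past hormones, had worn 2 capsules for 21 days, filled with the estrogen ethynyl estradiol (100 µg) and the progestin megestrol acetate (30 mg), and is used here for the estimate of the spread and for a comparison. Every gland was taken about 49 days later, in metestrus, the phase after ovulation. No suckling took place, so the pregnancy group models a gland that was prepared for lactation, was not milked and then regressed. The whole gland was ground up, with its fat, vessels and any lymph node or muscle attached.

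During pregnancy the mammary epithelium grows into alveoli, whose luminal cells make milk proteins and package milk fat, and the surrounding fat shrinks. When milk is not removed, alveolar cells die, macrophages and epithelial cells take up dead cells and leftover milk, the matrix is remodelled and fat cells refill. A gland that has passed through this cycle is known to keep some features of it, and an early pregnancy is known to lower later mammary cancer risk in rats and women.

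Markers of the gland's own cells were detected throughout. Of the measured markers, 16 of 16 of adipocytes, 15 of 15 of basal myoepithelium and 17 of 19 of luminal epithelium were called present on all 10 arrays, the deposited call that a signal is above background. Between 65.4 and 68.4% of probe sets were present per array. Lymph node and skeletal muscle tissue differed widely among rats of a group. Levels of the lymph node list, given as the mean log2 value of its members relative to all arrays, were 1.59, -1.05, 1.69, 1.70 and -0.94 in the controls and 0.20, -0.71, 1.34, -0.64 and 0.35 after pregnancy. Those of the muscle list were -1.38, 0.15, -1.72, -0.25 and 0.63 in the controls and -1.23, -1.39, -0.28, 1.87 and 2.25 after pregnancy. Here and below, values stand in the order of replicates 1, 2, 4, 5 and 6 for controls and 1, 2, 3, 7 and 9 for pregnancy. Controls 1, 4 and 5 and pregnancy 3 thus held most lymphoid RNA, and pregnancy 7 and 9 most muscle RNA. In such whole tissue, fewer cells of a type and less RNA per cell cannot be told apart.

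Few genes passed the threshold between past pregnancy and control. Among those that were higher, 8 are on the list of lipid-handling phagocytes and 3 on the list of milk fat globule and secretory genes. Both lists were chosen with earlier results of these data known. Of 31042 probe sets, of which 54.7% had a higher mean after pregnancy, 61 passed at an adjusted p under 0.05 (limma, two-sided), which is 0.197%. Higher were 36 (0.116%) and lower were 25 (0.0805%), with adjusted p values between 0.00789 and 0.0498. They name 48 genes, 30 higher and 18 lower, while 9 name none. In 60 of the 61, all 5 pregnancy arrays lay outside the range of the controls, against 2.49% of all probe sets for above and 1.74% for below. The higher calls were larger, with a median log2 difference of 0.80, than the lower ones, with a median of -0.45. At an unadjusted p under 0.05 there were 6799 probe sets (21.9%), 3511 higher and 3288 lower.

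Membership of the 61 leaned on single rats. Gpnmb kept its call in each of the 15 fits that left out 1 array, with an adjusted p of at most 0.0408, and the probe set standing for any other named gene kept its call in at most 10 of the 15. Without control 4, pregnancy 1, pregnancy 7 or pregnancy 9, 3 probe sets passed each time, those of Gpnmb and Creg1 and of a transcript with no name. Without control 1 the number was 7 and without hormone replicates 1, 2, 3, 4 and 5 it was 13, 37, 21, 5 and 34, while without control 5 it was 506 and without control 2 it was 1430. Without control 6, pregnancy 2 and pregnancy 3 it was 44, 45 and 45. The call of every gene named below as passing, other than Gpnmb and Creg1, was therefore lost without control 4 or any of pregnancy 1, 7 and 9. The highest adjusted p that leaving out 1 array gave such a gene was between 0.117 and 0.158. Without the 3 muscle-rich arrays 0 passed in limma, with 2607 at an unadjusted p under 0.05, and without the 4 lymphoid-rich arrays 10 passed, 3 of them among the 61. The muscle-rich arrays were pregnancy 7 and 9 and hormone 4 (list level 3.69), which left pregnancy 1, 2 and 3. Leaving out the lymphoid-rich arrays, controls 1, 4 and 5 and pregnancy 3, left controls 2 and 6. Fewer arrays and tissue content cannot be told apart in these fits. All 47 named genes with a passing probe set kept their direction in each alternative fit that tested them, which was all 26 except for Trem2, Cela1, Syt13 and Drc12, which the present-call filter removed from 1. In 60 of the 61 the groups did not overlap, so leaving out arrays could not turn the sign. The difference stays the same by construction with the 2 groups alone, the present-call filter, another spread estimate or without a hormone array. Keeping direction therefore says little about stability. Higher calls made up 59.0% of the 61 and 75.6% of the 41 calls found when array medians were centred. Lower calls were the majority with array weights (43.2% higher of 1154), a lymph node covariate (29.9% of 291), lymph node and muscle covariates together (40.2% of 127) and without control 2 (39.9% of 1430).

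**Figure D1:**
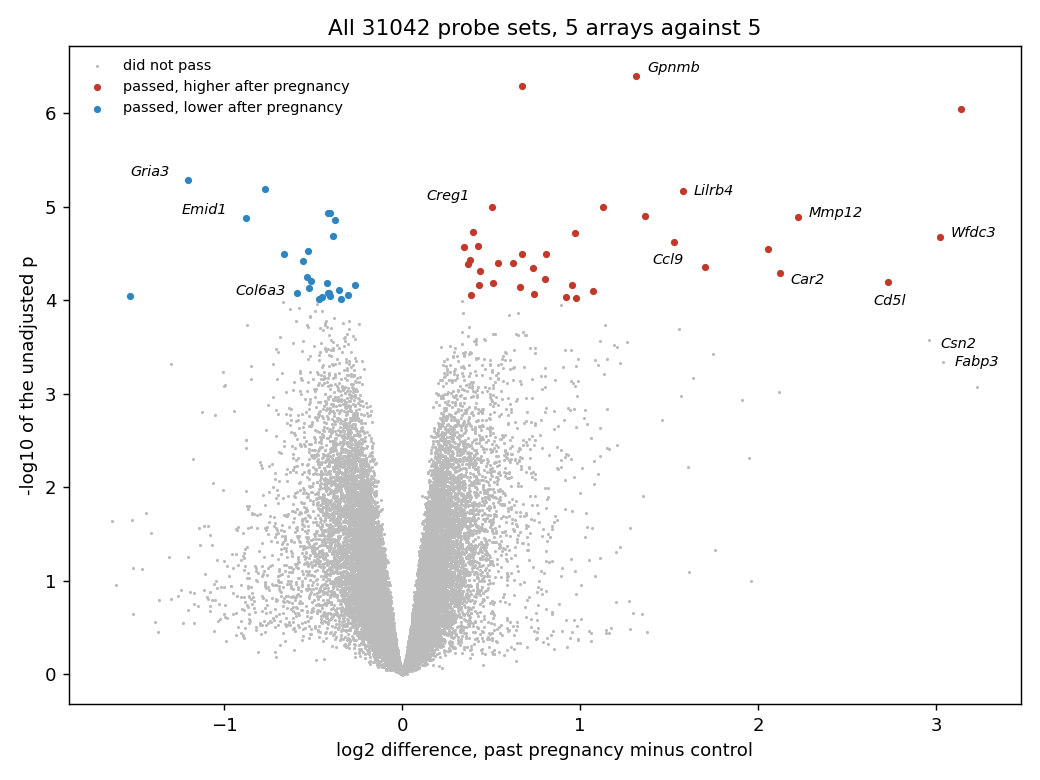
Each point is 1 probe set, with the log2 difference of past pregnancy minus control (5 arrays each) on the x axis and -log10 of the unadjusted p on the y axis. The 36 red points passed and were higher after pregnancy, the 25 blue points passed and were lower, and Csn2 and Fabp3 show differences near 3 that did not pass.

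Some genes known from lipid-laden, debris-eating macrophages were higher after pregnancy. Of the lipid-handling phagocyte list, 8 of 31 measured genes passed upward and 0 downward, against 0.155% and 0.112% of all 14235 genes. The list was chosen with earlier results of these data known, so its counts describe the data and are no independent support. The 8 were Gpnmb, Trem2, Mmp12, Mpeg1, Npc2, Ctsd, Lipa and Cd5l. In 29 of the 31 the mean was higher, with a median log2 difference of 0.19, where 50.7% of all genes were higher with a median of 0.003. For past-hormone glands minus control the median of this list was 0.21. All 5 pregnancy arrays lay above every control for 10 of the 31, against 2.21% of all genes.

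Gpnmb, a membrane glycoprotein of lysosome-loaded macrophages, had the smallest adjusted p. Its log2 levels were 11.90, 11.77, 11.58, 11.30 and 11.65 in the controls and 13.24, 13.05, 12.51, 13.17 and 12.82 after pregnancy. The lowest pregnancy array, replicate 3, stood above the highest control. Gpnmb rose by 1.31 ± 0.15 (SE) on the log2 scale, or 2.49-fold (adjusted p = 0.00789). It also lay above all controls in past-hormone glands, with 12.62, 12.25, 12.84, 12.26 and 12.60.

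The window from before the annotated start of Gpnmb to just after it is shown because lysosomal and macrophage genes moved beside each other. Many such genes carry a short E-box-like word, TCANNTGA, and factors of the MITF and TFE family bind some forms of it. Sequences are from RefSeq (GRCr8), 300 bases each and 5′ to 3′. Gpnmb lies at chr4:79340878-79341177 on the plus strand, and the window of Ctsd at chr1:206968772-206969071 on the minus strand. Capitals mark TCANNTGA in both windows and also CACGTG, a word that can lie inside it, in Ctsd.
Gpnmb promoter: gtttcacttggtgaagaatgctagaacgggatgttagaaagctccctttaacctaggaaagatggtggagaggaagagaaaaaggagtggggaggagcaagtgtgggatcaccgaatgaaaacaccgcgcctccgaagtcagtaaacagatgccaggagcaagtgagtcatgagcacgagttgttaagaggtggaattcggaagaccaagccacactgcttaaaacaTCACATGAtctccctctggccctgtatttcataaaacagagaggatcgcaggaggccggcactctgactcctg
Ctsd promoter: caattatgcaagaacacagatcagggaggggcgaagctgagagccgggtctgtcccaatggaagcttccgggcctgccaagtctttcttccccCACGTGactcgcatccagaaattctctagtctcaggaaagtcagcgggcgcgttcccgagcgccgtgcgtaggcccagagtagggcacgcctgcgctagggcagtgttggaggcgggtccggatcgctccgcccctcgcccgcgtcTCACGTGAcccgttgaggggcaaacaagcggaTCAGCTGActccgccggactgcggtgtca
In Gpnmb the word begins 23 bases before the start. In Ctsd a match with CACGTG inside begins 11 bases before the start, another CACGTG 157 bases before it and another TCANNTGA 21 bases after it. TCANNTGA and CACGTG read the same on both strands. TCANNTGA occurred in 7.76% of the 33469 promoter windows of the table and CACGTG in 6.42%. Of the 30 genes that were higher, 25 had a window, and 7 of these held TCANNTGA (Cd5l, Ctsd, Galnt1, Gpnmb, Lipa, Mfsd1 and Vma21) and 5 CACGTG. Of the phagocyte list, 10 of 23 genes with a window held TCANNTGA. These counts are of genes with a match in any of their windows, while the percentages above count every window. Of the 18 lower genes 10 had a window, 1 with TCANNTGA and 1 with CACGTG. These are matches of letters, not measured binding, and not every form of TCANNTGA is a word of the MITF and TFE family.

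Mmp12, the macrophage elastase, was 8.77, 8.92, 8.98, 8.07 and 9.24 in the controls and 11.44, 11.25, 10.54, 11.37 and 10.50 after pregnancy. The groups were more than 1 log2 unit apart at their nearest arrays. Mmp12 rose by 2.22 ± 0.35, or 4.67-fold (adjusted p = 0.031). Cd5l, a secreted protein of tissue macrophages, had control levels of 5.19, 5.05, 5.27, 4.86 and 4.94 and pregnancy levels of 8.02, 9.67, 5.93, 8.35 and 7.0. Controls lay close together and pregnancy glands spread widely, with replicate 3 lowest and replicate 2 highest. Cd5l rose by 2.73 ± 0.49 (adjusted p = 0.0489).

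Trem2, a lipid-sensing receptor of macrophages, passed with both of its probe sets, but the brighter had no present call on any of the 10 arrays, so no size is given for it. The other was present on 0 of 5 control and 5 of 5 pregnancy arrays. Its levels were 6.21, 6.36, 5.51, 5.71 and 5.70 in the controls, where they are not told from background, and 8.13, 8.31, 6.94, 7.73 and 6.89 after pregnancy (adjusted p = 0.0422). Mpeg1, a pore-forming protein of macrophages, was 7.11, 6.83, 7.54, 7.68 and 7.17 in controls and 8.29, 8.21, 8.14, 8.33 and 8.23 after pregnancy. Its pregnancy levels were nearly alike among rats, and it rose by 0.97 ± 0.16 (adjusted p = 0.0365).

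Of the phagocyte list, 3 genes of lysosomal enzymes and carriers, Lipa, Ctsd and Npc2, also rose. Lipa, the lysosomal acid lipase, was 9.94, 9.98, 9.94, 9.79 and 10.17 in controls and 10.67, 10.65, 10.41, 11.13 and 10.66 after pregnancy. Every pregnancy array was above every control, and Lipa rose by 0.74 ± 0.14 (adjusted p = 0.0496). Ctsd, the aspartic protease cathepsin D, rose by 0.54 ± 0.09 (adjusted p = 0.0408), and Npc2, which carries cholesterol out of lysosomes, by 0.43 ± 0.07 (adjusted p = 0.0382). Creg1, a secreted glycoprotein found in lysosomes, rose by 0.50 ± 0.08 with its brightest probe set (adjusted p = 0.031) and by 0.67 ± 0.08 with another (adjusted p = 0.00789). Vma21 and Atp6v1b2, an assembly factor and a subunit of the proton pump that acidifies lysosomes, passed with a probe set other than their brightest, at 0.67 ± 0.11 (adjusted p = 0.0382) and 0.51 ± 0.09 (adjusted p = 0.0489). Their brightest differed by 0.51 ± 0.12 (adjusted p = 0.0697) and 0.26 ± 0.07 (adjusted p = 0.0767) without passing. Another present probe set of Vma21 differed by 0.02 ± 0.12 (adjusted p = 0.934), and another of Atp6v1b2 by 0.15 ± 0.06 (adjusted p = 0.176). Mfsd1, a lysosomal transporter, passed with a dimmer probe set at 0.40 ± 0.06 (adjusted p = 0.0365), while its brightest differed by 0.01 ± 0.06. Among 23 measured subunits of that pump, a group picked by symbol after values were seen, 20 had a higher mean, with a median of 0.10, and 0 passed with the brightest probe set. Of 15 cathepsins picked in the same way, 9 had a higher mean, with a median of 0.05, and Ctsd was the 1 that passed.

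Receptors and a chemokine of myeloid cells were also higher. On the list of myeloid receptors, chemokines and neutrophil genes 2 of 20 passed upward, 0 downward, and 18 had a higher mean (median 0.38). Without the 4 lymphoid-rich arrays that median was 0.51. Lilrb4, an inhibitory receptor with close relatives whose signals the probes may share, was 7.38, 7.42, 7.45, 7.13 and 7.36 in controls and 9.46, 9.34, 8.05, 9.10 and 8.69 after pregnancy. Pregnancy 3 was again lowest and still above all controls. Lilrb4 rose by 1.58 ± 0.23 (adjusted p = 0.031). Ccl9, a chemokine that draws myeloid cells, was 7.47, 7.36, 7.40, 6.69 and 7.47 in controls and 9.07, 9.47, 7.92, 9.25 and 8.32 after pregnancy, and rose by 1.53 ± 0.25 (adjusted p = 0.0382). Cd300a, an inhibitory receptor that binds lipids of dying cells, was 7.76, 7.85, 7.71, 7.61 and 7.63 in controls and 8.46, 8.65, 8.04, 8.60 and 8.13 after pregnancy, and rose by 0.66 ± 0.12 (adjusted p = 0.0496). The groups overlapped for neither gene. Pilrb2l1, of a family of paired receptors with near relatives, rose by 0.62 ± 0.11 (adjusted p = 0.0408). Not passing were Clec7a, the beta-glucan receptor, at 1.15 ± 0.25 (adjusted p = 0.0697) and Clec4a1 at 0.37 ± 0.08 (adjusted p = 0.0668), although both had all pregnancy arrays above all controls.

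General markers of resident macrophages differed little. On that list 1 of 17 passed, Itgam, the integrin chain of complement receptor 3, which rose by 0.44 ± 0.08 (adjusted p = 0.0449), and 16 had a higher mean, with a median of 0.13, or 0.05 without pregnancy 1. Among those that did not pass were Cx3cr1 at 0.20 ± 0.10 (adjusted p = 0.237), C1qb, of the complement starter C1q, at 0.19 ± 0.12 (adjusted p = 0.364), Maf at -0.14 ± 0.10 (adjusted p = 0.416) and Adgre1, which encodes F4/80, at 0.24 ± 0.18 (adjusted p = 0.447). The difference between these markers and the lipid-handling genes was not tested.

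**Figure D2:**
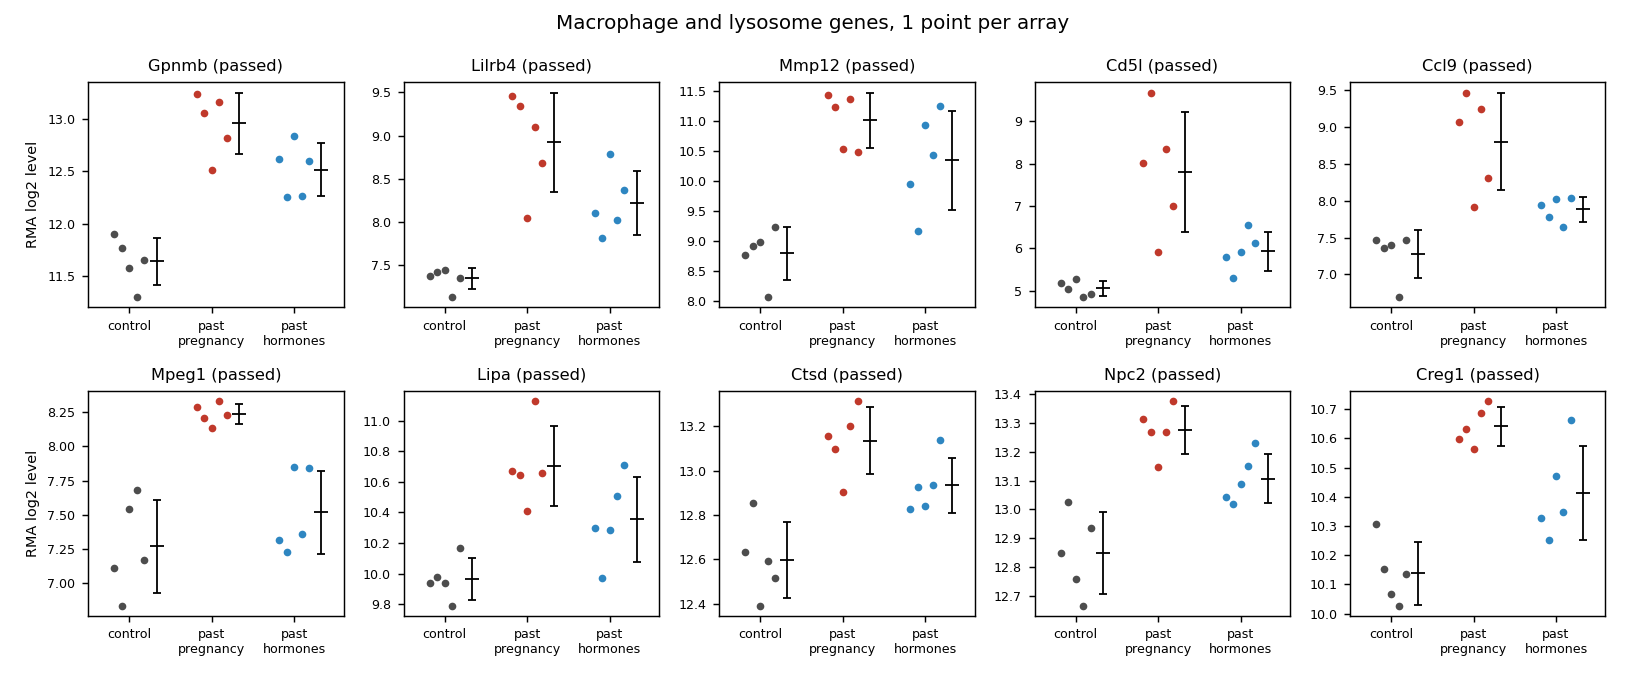
RMA log2 level (y axis) of 10 macrophage and lysosome genes in control, past-pregnancy and past-hormone glands, 1 point per array in replicate order, with mean and SD beside each group (n = 5). All 5 pregnancy arrays lie above all controls in each panel. Pregnancy replicate 3 is the lowest of its group in panels that include Gpnmb, Lilrb4, Cd5l, Ccl9, Mpeg1 and Lipa.

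Across the 15 arrays, the genes whose levels were most like those of Gpnmb were Lilrb4 (Pearson r = 0.961), Cd300a (0.935), Mmp12 (0.928), Mmp8 (0.915), Ccl9 (0.912) and Creg1 (0.907). These correlations are a description, since the arrays fall into 3 groups that differ in these genes. Mmp8, the neutrophil collagenase, had a present call on 1 control and all 5 pregnancy arrays. It was 1.56 ± 0.32 higher (adjusted p = 0.0678) and did not pass. Among matrix proteases and their inhibitors 2 of 25 passed upward, Mmp12 and Cela1, an elastase with no present call in either group, and 17 had a higher mean (median 0.13, or 0.05 without the lymphoid-rich arrays and 0.06 without control 5). Mmp3 was 1.16 ± 0.34 higher (adjusted p = 0.097) and Mmp19 was 0.41 ± 0.14 higher (adjusted p = 0.124), neither passing.

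Measured genes of milk proteins and milk fat globules all had higher means in glands that had been pregnant, and most of them missed the threshold. On the list of caseins and whey proteins 5 of 5 measured genes were higher, with a median log2 difference of 0.52, and 0 passed. All 5 had an unadjusted p under 0.05, as did 9.83% of all genes in that direction. On the list of milk fat globule and secretory genes 16 of 16 were higher, with a median of 0.84, and 3 passed (Wfdc3, Xdh and Tf). Without the 3 muscle-rich arrays that median was 0.53.

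Csn2, beta-casein, was 9.79, 11.13, 9.60, 12.14 and 12.97 in controls and 13.84, 14.28, 13.84, 14.35 and 14.13 after pregnancy. Controls spanned more than 3 log2 units, pregnancy glands lay close to each other, and the groups did not overlap. The difference was 2.96 ± 0.62 (adjusted p = 0.0697), and 2.10 without the 4 lymphoid-rich arrays. Wap, the whey acidic protein, was 10.34, 10.21, 9.81, 11.73 and 11.57 in controls and 12.11, 13.37, 11.95, 13.53 and 13.30 after pregnancy. It also separated the groups, by 2.12 ± 0.51 (adjusted p = 0.0724). Csn3, kappa-casein, at 0.52 ± 0.12 (adjusted p = 0.0697), Csn1s1, alpha-casein, at 0.35 ± 0.10 (adjusted p = 0.097) and Lalba, alpha-lactalbumin, at 0.36 ± 0.11 (adjusted p = 0.1) did not pass. These 3 had pregnancy means of 14.47, 14.44 and 14.39, near the highest value of any probe set on the pregnancy arrays (14.46 to 14.57), and Csn2 came close to it, so that differences and spread may be compressed there.

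Beta-casein and alpha-casein genes are textbook targets of prolactin through STAT5, which binds words of the form TTCNNNGAA, and their start windows are shown with that word in capitals. The windows lie at chr14:20601574-20601873 on the plus strand for Csn2 and chr14:20638800-20639099 on the minus strand for Csn1s1 (RefSeq, GRCr8).
Csn2 promoter: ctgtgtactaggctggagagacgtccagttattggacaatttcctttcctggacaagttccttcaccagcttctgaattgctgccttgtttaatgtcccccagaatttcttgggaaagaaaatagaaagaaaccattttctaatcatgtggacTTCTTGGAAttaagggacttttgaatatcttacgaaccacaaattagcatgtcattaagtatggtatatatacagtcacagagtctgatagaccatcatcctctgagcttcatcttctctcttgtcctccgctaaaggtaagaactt
Csn1s1 promoter: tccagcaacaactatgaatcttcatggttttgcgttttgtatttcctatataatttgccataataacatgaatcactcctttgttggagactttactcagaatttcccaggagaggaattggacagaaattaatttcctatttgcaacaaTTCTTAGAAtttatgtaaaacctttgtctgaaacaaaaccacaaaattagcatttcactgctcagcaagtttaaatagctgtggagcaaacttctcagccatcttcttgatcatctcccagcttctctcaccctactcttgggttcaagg
The word, which reads the same on both strands, begins 97 bases before the start in Csn2 and 100 bases before it in Csn1s1. It occurred in 8.87% of all windows. Counted by genes that had a window, 2 of 5 on the casein and whey list held it. So did 1 of 15 on the milk fat globule list and 1 of the 25 higher genes, Itgam. STAT5 itself differed by 0.32 ± 0.12 for Stat5a (adjusted p = 0.155) and 0.39 ± 0.15 for Stat5b (adjusted p = 0.153), and neither passed.

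Wfdc3, a small protein with the core domain of whey acidic protein, also passed. It was 5.08, 5.00, 4.88, 4.92 and 5.64 in controls, present on none of them and so not told from background, and 7.09, 8.80, 7.01, 8.70 and 9.04 after pregnancy, present on 4 of 5 (adjusted p = 0.0365). No size is given, since the control level is not measured. Tf, transferrin, a milk and serum iron carrier, was 13.94, 14, 14.11, 14.24 and 14.27 in controls and 14.52, 14.48, 14.46, 14.53 and 14.50 after pregnancy. It rose by 0.38 ± 0.07 (adjusted p = 0.0496) at the top of the range, and by 1.07 ± 0.20 with a dimmer probe set (adjusted p = 0.0496). Xdh, xanthine dehydrogenase, which is needed to envelop milk fat droplets, rose by 0.37 ± 0.06 (adjusted p = 0.0408), while another probe set of it differed by -0.16 (adjusted p = 0.332).

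Fabp3, a fatty acid carrier of secretory cells and also of muscle, was 7.50, 8.31, 7.83, 7.54 and 10.36 in controls and 10.99, 11.03, 10.56, 13.22 and 10.94 after pregnancy. Control 6 and pregnancy 7 stood above the rest of their groups. The difference of 3.04 ± 0.68 did not pass (adjusted p = 0.0697). Folr1, a folate receptor, was 1.14 ± 0.23 higher (adjusted p = 0.0668) and Plin2, the coat protein of lipid droplets, 0.85 ± 0.22 higher (adjusted p = 0.0782), without passing.

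Of the secretory transport and alveolar regulators 1 of 18 passed, Car2, carbonic anhydrase 2. It was 9.20, 9.48, 9.49, 9.33 and 10.52 in controls and 11.23, 11.62, 10.90, 12.65 and 12.23 after pregnancy. Control 6 stood nearest to the pregnancy arrays, and pregnancy 7 and 9 were highest. Car2 rose by 2.12 ± 0.38, or 4.35-fold (adjusted p = 0.0455), and a second probe set rose by 2.05 ± 0.34 (adjusted p = 0.0382). On that list 13 had a higher mean, with a median of 0.31, or 0.18 without pregnancy 7. Elf5, the transcription factor of alveolar cells, was 0.70 ± 0.27 higher (adjusted p = 0.155). Atp1b1, a subunit of the sodium pump, rose by 1.13 ± 0.17 with its dimmer probe set (adjusted p = 0.031) and differed by 0.70 ± 0.14 with its brightest (adjusted p = 0.0697). Slc28a3, a nucleoside transporter, was present on 0 of 5 controls and 5 of 5 pregnancy arrays, where its levels were 8.05, 7.84, 8.09, 9.90 and 9.58, but did not pass (adjusted p = 0.0697). Galnt1, which starts O-linked sugar chains, rose by 0.43 ± 0.08 with a dimmer probe set (adjusted p = 0.0489). Its brightest differed by 0.22 ± 0.05 (adjusted p = 0.0737).

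**Figure D3:**
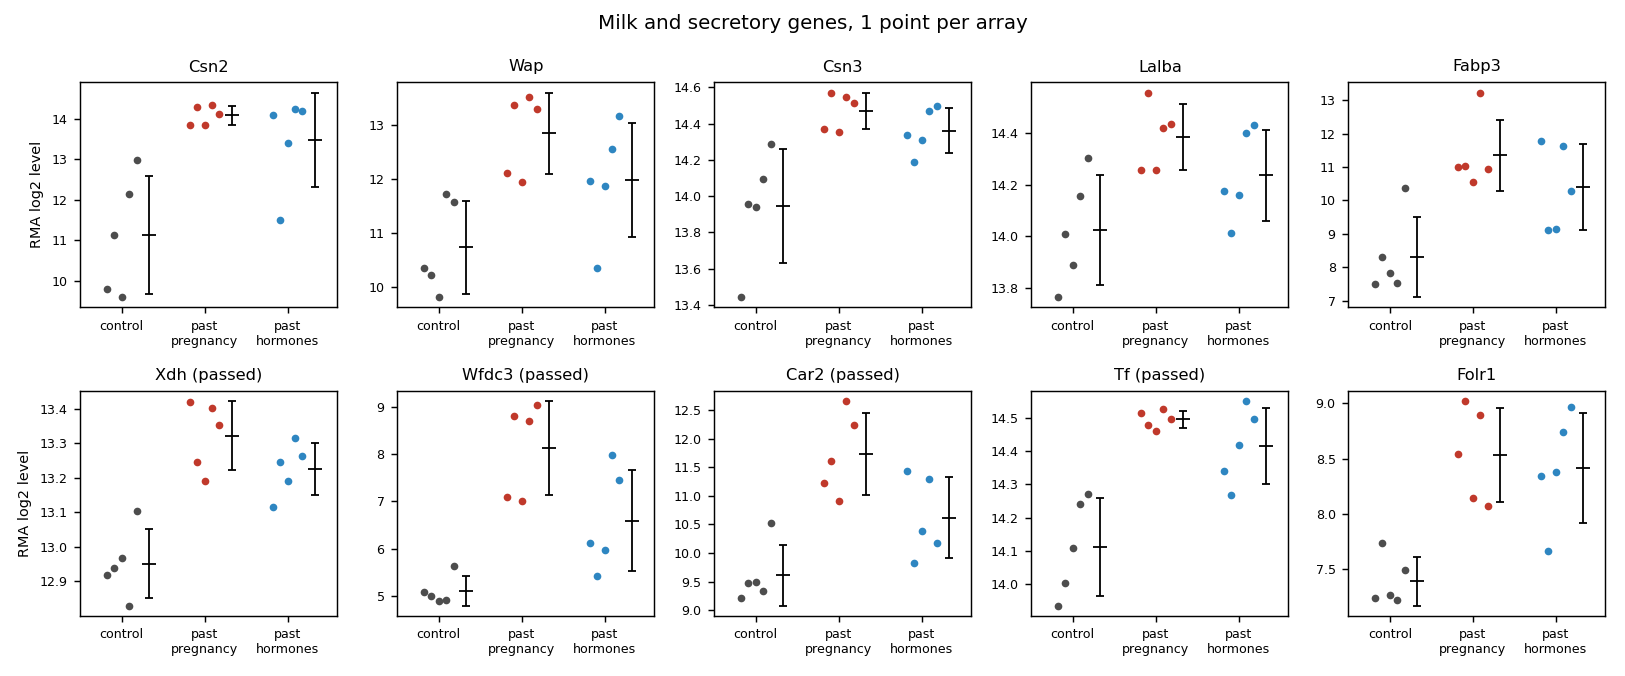
RMA log2 level (y axis) of 10 milk and secretory genes in control, past-pregnancy and past-hormone glands, 1 point per array in replicate order, with mean and SD beside each group (n = 5). Panels marked as passed are Xdh, Wfdc3, Car2 and Tf. Csn2 ranges from 9.60 to 12.97 in controls and from 13.84 to 14.35 after pregnancy.

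Markers of the epithelial layers did not pass. Of the luminal list 0 of 19 passed and 12 had a higher mean (median 0.14), with Cd24 at 0.59 ± 0.18 (adjusted p = 0.101), Prom1 at 0.71 ± 0.22 (adjusted p = 0.107) and Krt7 at -0.59 ± 0.22 (adjusted p = 0.15). Without the 4 lymphoid-rich arrays the luminal median was -0.18. Of the basal list 0 of 15 passed and 9 had a higher mean (median 0.05), with Acta2, smooth muscle actin, at 0.65 ± 0.34 (adjusted p = 0.276) and Krt5 at 0.46 ± 0.38 (adjusted p = 0.48). These medians were not tested against those of the milk lists.

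Fat cell and lipid synthesis genes had mostly higher means, and apart from a probe set of Srebf1 none passed. Of 24 genes of fatty acid synthesis 22 had a higher mean, with a median log2 difference of 0.43, and 0 passed. An unadjusted p under 0.05 was met by 15 upward and 1 downward, against 9.83% and 12% of all genes. Thrsp, a lipogenic nuclear protein, was 0.66 ± 0.16 higher (adjusted p = 0.0701), Elovl5, a fatty acid elongase, 0.70 ± 0.19 (adjusted p = 0.0819), Me1, malic enzyme, 0.75 ± 0.21 (adjusted p = 0.0929) and Acly, ATP citrate lyase, 0.45 ± 0.13 (adjusted p = 0.0914). Scd2, a desaturase, went the other way at -0.45 ± 0.12 (adjusted p = 0.0873). Srebf1, the transcription factor that switches on lipid synthesis, was 10.19, 10.70, 10.37, 10.55 and 10.65 in controls and 11.34, 10.88, 11.38, 12.04 and 11.60 after pregnancy with the probe set that passed, and rose by 0.96 ± 0.17 (adjusted p = 0.0489). Its brightest probe set differed by 0.44 ± 0.12 (adjusted p = 0.0923).

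Of 16 adipocyte genes 15 had a higher mean (median 0.35) and 0 passed. An unadjusted p under 0.05 was met upward by 7, against 9.83% of all genes. Cebpa, a transcription factor of fat cells, was 0.97 ± 0.23 higher (adjusted p = 0.0712), Lep, leptin, 1.06 ± 0.30 (adjusted p = 0.092), Pnpla2, the first lipase of stored fat, 0.41 ± 0.14 (adjusted p = 0.133) and Plin1, the lipid droplet coat of fat cells, 0.47 ± 0.17 (adjusted p = 0.14). All of the pregnancy arrays lay above all controls for Cebpa. Of 31 genes of oxidative phosphorylation 30 had a higher mean (median 0.11, or 0.02 without the lymphoid-rich arrays) and 0 passed, with Sdhb at 0.19 ± 0.07 (adjusted p = 0.147). Cholesterol genes had 17 of 20 higher means (median 0.15, or -0.01 without the muscle-rich arrays) with 0 passing, and pregnancy 9 stood apart on that list, at 0.74 against -0.08 to 0.07 for the other pregnancy arrays. Of 8 measured brown fat genes 6 had a higher mean (median 0.12, or -0.04 without the lymphoid-rich arrays) and 0 passed.

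Collagens and other matrix genes had mostly lower means after pregnancy, and 1 of each list passed. Of 13 fibrillar and microfibrillar collagens 12 had a lower mean, with a median log2 difference of -0.31, 10 had an unadjusted p under 0.05 downward against 12% of all genes, and Col6a3 passed. For 2 of the 13 all pregnancy arrays lay below all controls, against 2.18% of all genes. Col6a3, the long chain of collagen VI, which beads microfibrils around fat cells and fibroblasts, was 12.82, 12.87, 12.76, 12.88 and 12.80 in controls and 12.50, 12.50, 12.23, 12.31 and 12.03 after pregnancy. Control glands lay close together and every pregnancy gland was below them. Col6a3 fell by 0.51 on the log2 scale, with an SE of 0.09 (adjusted p = 0.0489). A dimmer probe set of Col6a3, present on 5 of 5 arrays in both groups, differed by -0.05 ± 0.22 (adjusted p = 0.914). The other collagens differed by less or spread more, and did not pass. Col5a2 was at -0.40 ± 0.10 (adjusted p = 0.071), Col1a2 at -0.29 ± 0.07 (adjusted p = 0.0736), Col5a1 at -0.55 ± 0.14 (adjusted p = 0.074), Col3a1 at -0.23 ± 0.07 (adjusted p = 0.0951) and Col1a1 at -0.30 ± 0.10 (adjusted p = 0.122). For these 5, 4 of 5 pregnancy arrays were below all controls, and pregnancy 2 was not. Over all 26 alternative fits the median of this list stayed between -0.37 and -0.24.

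Among basement membrane and other matrix genes 27 of 36 had a lower mean (median -0.21, or -0.12 without the muscle-rich arrays) and 1 passed. Emid1, which encodes an EMI-domain protein of the matrix, was 8.50, 7.90, 8.50, 8.58 and 8.27 in controls and 7.31, 7.40, 7.8, 7.55 and 7.31 after pregnancy. Control 2 was the lowest control and the groups did not overlap. Emid1 fell by 0.88 on the log2 scale, with an SE of 0.14 (adjusted p = 0.031). Short of the threshold were Fbn1, fibrillin 1, at -0.71 ± 0.17 (adjusted p = 0.0697), Tnc, tenascin C, at -1.0 ± 0.24 (adjusted p = 0.0712), Lamc1, a laminin chain, at -0.32 ± 0.08 (adjusted p = 0.0736), Postn, periostin, at -0.42 ± 0.10 (adjusted p = 0.0739) and Fn1, fibronectin, at -0.38 ± 0.11 (adjusted p = 0.0916).

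**Figure D4:**
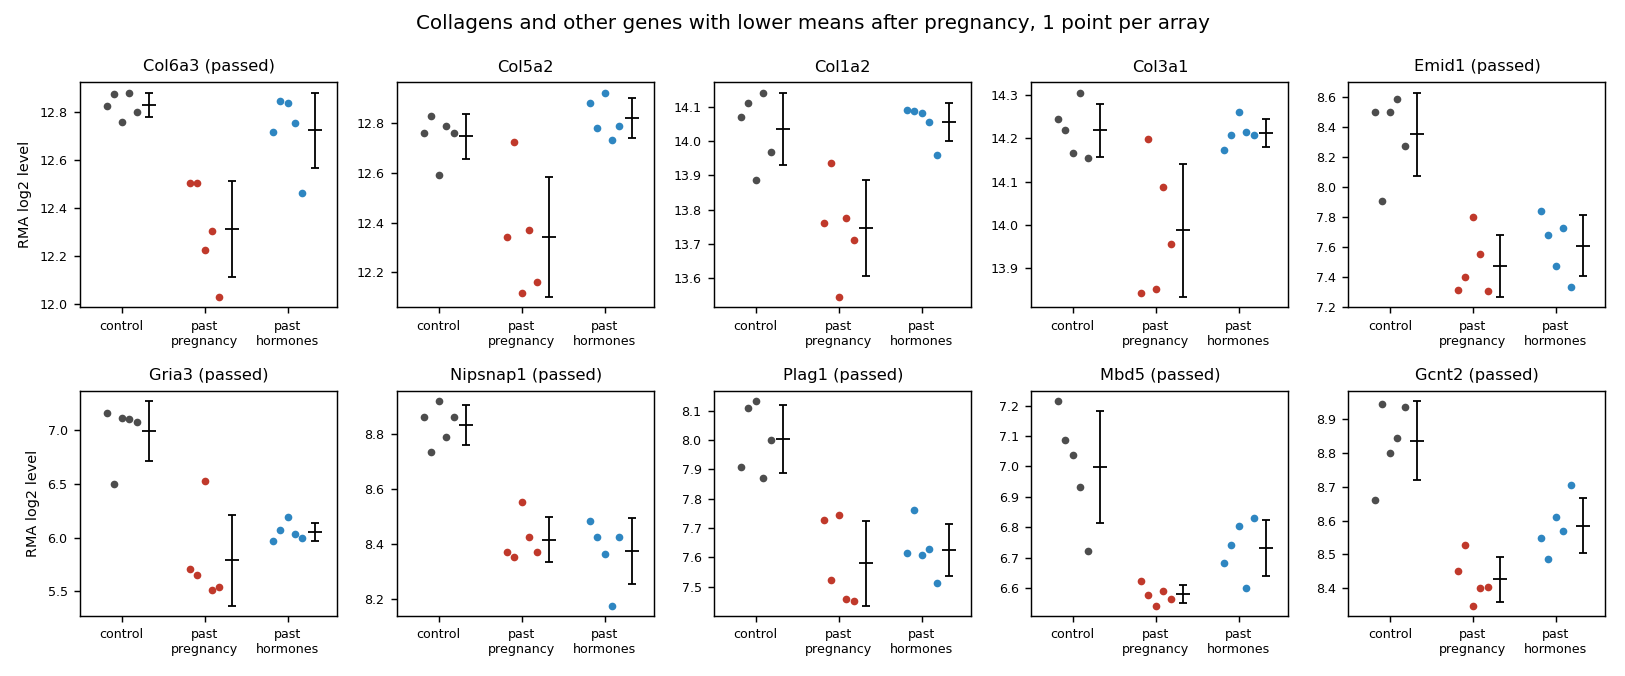
RMA log2 level (y axis) of 4 collagens and 6 other genes in control, past-pregnancy and past-hormone glands, 1 point per array in replicate order, with mean and SD beside each group (n = 5). Panels marked as passed separate the pregnancy arrays from the controls, except that pregnancy 3 of Gria3, at 6.53, overlaps control 2, at 6.50. In the collagen panels the hormone arrays lie mostly among the controls, and in the Gria3, Emid1 and Nipsnap1 panels near the pregnancy arrays.

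Lower genes outside the matrix were of mixed kinds. Gria3, a subunit of AMPA-type glutamate receptors, was 7.16, 6.50, 7.12, 7.11 and 7.08 in controls and 5.71, 5.65, 6.53, 5.51 and 5.54 after pregnancy. Control 2 and pregnancy 3 stood apart from their groups and overlapped. Gria3 fell by 1.20 with an SE of 0.17 (adjusted p = 0.031). On the list of glutamate receptors and synaptic genes 2 of 24 passed downward, Gria3 and Syt13, a synaptotagmin with no present call in either group, while the median was 0.03.

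Nipsnap1, a mitochondrial protein, was 8.86, 8.73, 8.92, 8.79 and 8.86 in controls and 8.37, 8.35, 8.55, 8.42 and 8.37 after pregnancy, and fell by 0.42 with an SE of 0.06 (adjusted p = 0.031). Gcnt2, which adds the branches of the I blood group antigen to sugar chains, was 8.66, 8.94, 8.80, 8.84 and 8.94 in controls and 8.45, 8.53, 8.35, 8.40 and 8.40 after pregnancy, and fell by 0.41 with an SE of 0.06 (adjusted p = 0.031). For neither gene did the groups overlap. Plag1, a growth-related zinc finger factor, was 7.91, 8.11, 8.13, 7.87 and 8.0 in controls and 7.73, 7.52, 7.74, 7.46 and 7.45 after pregnancy, and fell by 0.42 with an SE of 0.08 (adjusted p = 0.0489). Mbd5, a chromatin protein, was 7.21, 7.09, 7.04, 6.93 and 6.72 in controls and 6.62, 6.58, 6.54, 6.59 and 6.56 after pregnancy, where it varied little. It fell by 0.42 with an SE of 0.08 (adjusted p = 0.0496), and another of its probe sets differed by 0.10 (adjusted p = 0.413).

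Ttll3, an enzyme that adds glycine to tubulin, was 6.98, 6.97, 7.0, 7.01 and 6.83 in controls and 6.55, 6.74, 6.57, 6.36 and 6.54 after pregnancy (log2 difference -0.40 ± 0.08, adjusted p = 0.0496). Fbxl6, an F-box protein, was 9.48, 9.47, 9.51, 9.53 and 9.55 in controls and 9.23, 9.19, 9.04, 9.17 and 8.99 after pregnancy (-0.39 ± 0.06, adjusted p = 0.0365). Controls of both genes were tightly grouped, and all pregnancy arrays were below them. Adck5, a kinase-like protein, was 9.27, 9.23, 9.31, 9.25 and 9.17 in controls and 9.0, 8.93, 8.77, 8.81 and 8.82 after pregnancy (-0.38 ± 0.06, adjusted p = 0.031). Gtf2i, a transcription factor, was 11.05, 10.89, 11.09, 11.10 and 11.16 in controls and 10.77, 10.71, 10.69, 10.80 and 10.54 after pregnancy (-0.36 ± 0.07, adjusted p = 0.0496). Every pregnancy array was lower for these as well. Another probe set of Gtf2i differed by -0.12 ± 0.09 (adjusted p = 0.453). A predicted gene that the deposited table calls RGD1562031_predicted was 7.27, 7.69, 7.65, 7.28 and 7.49 in controls and 7.01, 6.96, 7.07, 7.09 and 6.91 after pregnancy (-0.47 ± 0.09, adjusted p = 0.0498).

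Men1, the gene of the tumour suppressor menin, fell by 0.26 with an SE of 0.05 (adjusted p = 0.0489), while another of its probe sets differed by 0.04 (adjusted p = 0.858). Tnks, tankyrase, fell by 0.31 with an SE of 0.06 (adjusted p = 0.0496), and Atp13a2, a lysosomal polyamine exporter, by 0.35 with an SE of 0.07 (adjusted p = 0.0498). Zfp592, a zinc finger protein, passed downward with a dimmer probe set at -0.52 ± 0.10 (adjusted p = 0.0496), and its brightest differed by -0.12 ± 0.11. An MHC class I transcript, whose probes many relatives share, was also lower with a probe set other than its brightest. Of p53 target and growth arrest genes 0 of 18 passed, and the closest were Gadd45b at -0.71 ± 0.18 (adjusted p = 0.0782), Zmat3 at -0.23 ± 0.07 (adjusted p = 0.0994) and Sesn2 at -0.30 ± 0.10 (adjusted p = 0.117). Their list had a median of -0.15, and of 0.03 without the 4 lymphoid-rich arrays. Hspa1a, the inducible heat shock protein, was at -0.73 ± 0.16 (adjusted p = 0.0697).

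Angpt1, a ligand of the endothelial Tie2 receptor, rose. It was 5.16, 5.64, 5.26, 5.33 and 5.71 in controls, present on 1 of 5, and 6.21, 6.01, 5.95, 6.38 and 6.21 after pregnancy, present on 5 of 5, a difference of 0.73 ± 0.13 (adjusted p = 0.0422). It was the 1 of 22 endothelial and vessel genes that passed, and their median was -0.01. Vwf, von Willebrand factor, was at -0.44 ± 0.14 (adjusted p = 0.109). Tent5c, a poly(A) polymerase of secretory cells, was 8.31, 8.28, 8.38, 8.37 and 8.20 in controls and 9.07, 8.99, 9.0, 9.98 and 9.38 after pregnancy. The groups lay well apart, and Tent5c rose by 0.97 ± 0.18 (adjusted p = 0.0498). Acer2, a Golgi ceramidase, rose by 0.92 ± 0.17 with a dimmer probe set (adjusted p = 0.0496), and Usp4, a ubiquitin protease, by 0.35 ± 0.06 with a dimmer one (adjusted p = 0.0382). Their brightest probe sets differed by 0.49 ± 0.13 (adjusted p = 0.0808) and 0.15 ± 0.06 (adjusted p = 0.155). The dimmer probe set of Usp4 was present on 2 of 5 control and 3 of 5 pregnancy arrays.

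Lymphocyte genes had lower medians after pregnancy that turned over without the lymphoid-rich arrays. The medians were -0.77 for the lymph node list, -0.64 for T and NK cells and -0.39 for B and plasma cells. Of these, 0 of 17, 0 of 19 and 0 of 13 genes passed. Without the 4 lymphoid-rich arrays the same medians were 0.75, 0.54 and 0.75. Those arrays were picked by the lymph node list itself, which left as controls only 2 and 6, the lowest on it. The change of sign thus follows from that choice and is no separate result. Jchain, the joining chain of secreted antibodies, was 11.75, 7.81, 11.56, 10.60 and 7.65 in controls and 11.42, 11.47, 12.02, 10.85 and 11.69 after pregnancy. It was high in all pregnancy glands and low in controls 2 and 6, with a difference of 1.61 ± 0.86 that did not pass (adjusted p = 0.28). Cd4 was at 0.55 ± 0.19 (adjusted p = 0.127) and Gzma, granzyme A, at 0.67 ± 0.30 (adjusted p = 0.206).

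All 15 antigen presentation genes had a lower mean (median -0.34) and 0 passed, with the class II gene RT1-Da at -0.36 ± 0.16 (adjusted p = 0.199), and their median was -0.07 without the lymphoid-rich arrays. Mast cell genes had 11 of 13 lower means (median -0.36) and 0 passing, and 6 had an unadjusted p under 0.05 downward, against 12% of all genes. Cpa3, mast cell carboxypeptidase, was 12.10, 11.90, 11.97, 11.76 and 12.24 in controls and 11.53, 11.38, 11.60, 11.05 and 11.77 after pregnancy (-0.53 ± 0.14, adjusted p = 0.0797). Cma1, chymase, was at -0.42 ± 0.12 (adjusted p = 0.0915) and Hdc, which makes histamine, at -0.43 ± 0.13 (adjusted p = 0.0977). The mast cell median was -0.45 without the lymphoid-rich arrays and -0.22 without pregnancy 7. Of interferon response genes 0 of 19 passed (median -0.16, or 0.02 without the lymphoid-rich arrays), with Stat2 at -0.34 ± 0.11 (adjusted p = 0.105). Of acute phase and innate genes 13 of 16 had a higher mean (median 0.19, or 0.13 without control 1) and 0 passed, with C3, the central complement protein, at 0.87 ± 0.27 (adjusted p = 0.107), and for it all pregnancy arrays lay above all controls.

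**Figure D5:**
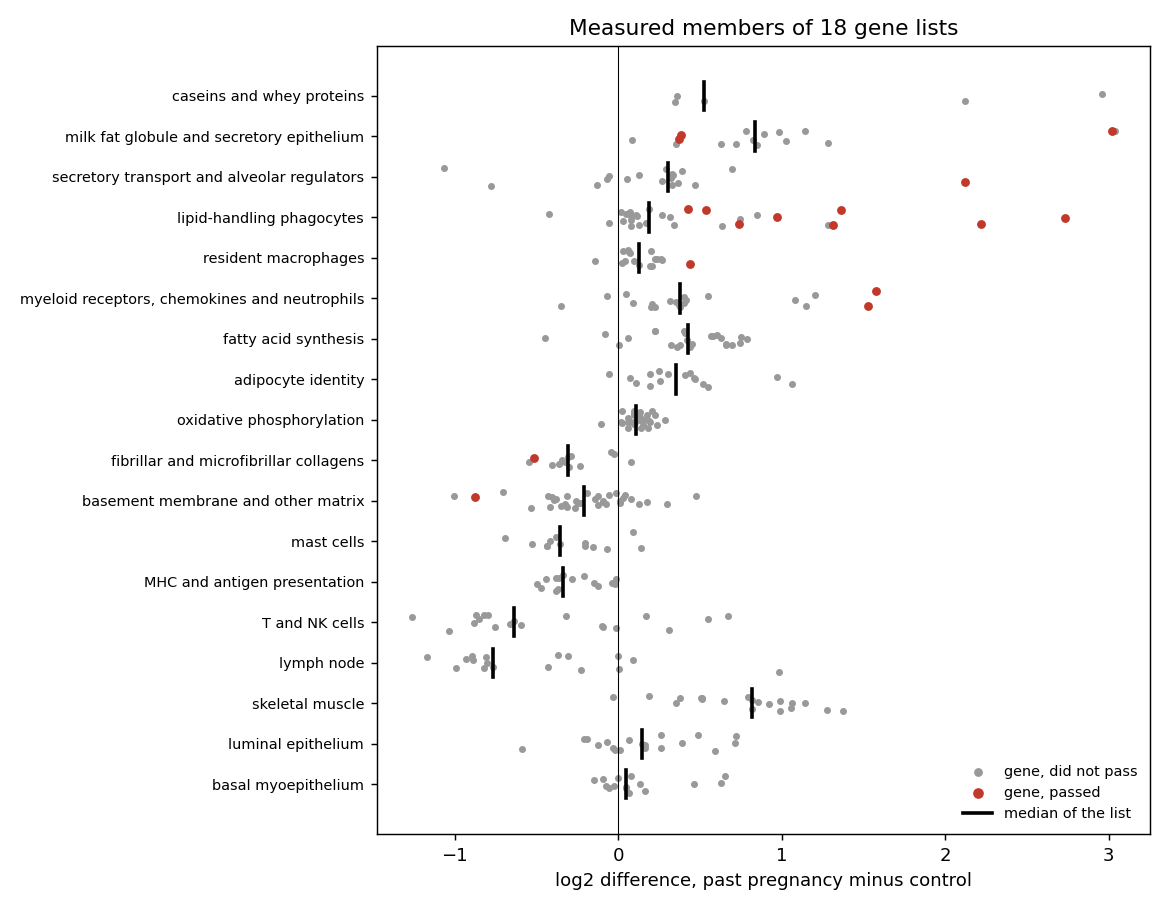
Each point is a measured gene (brightest probe set), placed by its log2 difference of past pregnancy minus control on the x axis, in 18 lists, with a black bar at the list's median. Red points passed. Milk, phagocyte and fatty acid synthesis genes lie mostly to the right of 0, and collagens, mast cell and antigen presentation genes mostly to the left.

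Hormone and growth factor pathways that shape the gland did not differ past the threshold. Of 14 hormone receptor and hormone-sensing genes 0 passed (median 0.06). Esr1, the estrogen receptor, was at 0.47 ± 0.24 (adjusted p = 0.267), Pgr, the progesterone receptor, at 0.07 ± 0.53 (adjusted p = 0.952) and its target Areg, amphiregulin, at -0.19 ± 0.56 (adjusted p = 0.864). The 95% intervals were -0.05 to 0.99, -1.07 to 1.21 and -1.38 to 1.0, which do not exclude changes of that size. Wnt4, another progesterone target, was at -0.16 ± 0.22 (adjusted p = 0.677). Cited1, a co-regulator in hormone-sensing cells, was at -1.07 ± 0.48 (adjusted p = 0.211).

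In the growth hormone and IGF axis 0 of 16 passed (median -0.05). Igf1 was at -0.16 ± 0.14 (adjusted p = 0.504), Ghr, the growth hormone receptor, at 0.32 ± 0.23 (adjusted p = 0.435), Igf2 at -0.75 ± 0.32 (adjusted p = 0.187) and Igfbp4, an IGF binding protein, at 0.33 ± 0.11 (adjusted p = 0.131). Of the EGF family and its receptors 0 of 14 passed (median 0.03). In the TGF-beta pathway 0 of 19 passed (median 0.07), with the co-receptor Tgfbr3 at 0.70 ± 0.18 (adjusted p = 0.0786), the ligand Tgfb3 at 0.44 ± 0.20 (adjusted p = 0.219) and Ltbp2, a binding protein in microfibrils, at -0.65 ± 0.20 (adjusted p = 0.108). In the Wnt pathway 0 of 25 passed (median -0.06), with the R-spondin receptor Lgr4 at 0.63 ± 0.14 (adjusted p = 0.0697), the receptor Fzd4 at 0.62 ± 0.17 (adjusted p = 0.0914) and the secreted inhibitor Wif1 at -0.46 ± 0.17 (adjusted p = 0.144). For Lgr4 the groups did not overlap. In the Notch pathway 0 of 18 passed (median 0.04), with the co-activator Maml1 at -0.33 ± 0.07 (adjusted p = 0.0697), the feedback inhibitor Nrarp at -0.32 ± 0.08 (adjusted p = 0.0837) and the receptor Notch3 at 0.68 ± 0.19 (adjusted p = 0.0953).

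Genes of gland regression and cell death had 13 of 23 higher means (median 0.04) and 0 passing, with Lifr, the receptor of the involution cytokine LIF, at 0.28 ± 0.07 (adjusted p = 0.0697) and Lif at 0.22 ± 0.07 (adjusted p = 0.105). DNA replication and mitosis genes had 19 of 28 lower means (median -0.06) and 0 passing. An unadjusted p under 0.05 was met by 0, against 9.83% of all genes upward and 12% downward. In the circadian clock, the immediate early and heat shock list, blood, skin keratinocytes and Schwann cells 0 passed either, with medians of 0.02, -0.02, 0.09, 0.21 and 0.07. The skin median was -0.05 without the muscle-rich arrays. Muscle genes had a median of 0.82 and 0 of 20 passing, and that median was -0.51 without the 3 muscle-rich arrays. Those arrays were picked by this same list, so the change follows from that choice.

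Between pregnancy and hormone glands a single gene passed. Of 31042 probe sets 1 passed between them (0.00322%, or 0.00702% of the 14235 genes), and it was not among the 61, while 3092 had an unadjusted p under 0.05. It was Cbln2, a synapse-organising protein. Its levels were 7.74, 7.49, 7.40, 7.41 and 7.25 after pregnancy and 8.63, 8.30, 8.42, 8.23 and 8.11 after hormones, with controls at 7.72, 7.67, 7.60, 7.29 and 7.68. Hormone arrays were above all others. Cbln2 was lower after pregnancy than after hormones by 0.88, with an SE of 0.11 (adjusted p = 0.0359), and present on 1 of 5 pregnancy against 5 of 5 hormone arrays. Without any of controls 1, 2, 4 and 6, pregnancy 3, 7 and 9, or hormone replicates 1, 2, 3 and 4, 0 passed between these groups, and without pregnancy 2 there were 9. Both comparisons share the pregnancy arrays. Of the genes named above, Gpnmb was 0.44 higher after pregnancy than after hormones (adjusted p = 0.416), Csn2 0.60 higher (adjusted p = 0.773), Cd5l 1.86 higher (adjusted p = 0.342), Tent5c 0.95 higher (adjusted p = 0.303) and Col6a3 at -0.41 (adjusted p = 0.342). None of these differences passed. Against control, hormone glands had list medians of 0.21 for resident macrophages, 0.42 for caseins and whey proteins and 0.49 for adipocytes. Pregnancy glands had 0.13, 0.52 and 0.35 there. For milk fat globule genes and fibrillar collagens hormone glands had 0.26 and 0.02, and pregnancy glands 0.84 and -0.31. Differences between these medians were not tested.

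Present calls switched completely between groups for 13 probe sets. Present on all 5 pregnancy and no control arrays were 4, those of Slc28a3, Zfp335 and Trem2 and 1 with no gene name. Present on all 5 controls and no pregnancy array were 9, which name Grip1, Col26a1, Ccdc106, Fancd2, Itga2b, Thsd7a and Foxj3, with 2 naming no gene. Trem2 was the only named gene of these that passed. Itga2b, the integrin chain of platelets, was 8.0, 7.86, 7.97, 7.86 and 7.81 in controls and 7.52, 7.49, 7.8, 7.38 and 7.38 after pregnancy, so that the switch of calls went with a difference of -0.39 ± 0.08 (adjusted p = 0.0697).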

How the data were processed

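RNA of the left inguinal gland, isolated by the Trizol method, was amplified from 80 ng and hybridised to 1 Affymetrix array per rat, per the labels' protocols. The deposited values are log2 expression by RMA, with a present, marginal or absent call for each probe set. GCOS, RMA, MAS5 and affy are named in the submitters' processing notes, with neither version nor role stated there. Array medians lie close together (7.72 to 7.77 on the 10 arrays). The authors' deposited p-values of their own comparison were not used, nor were 15 per-sample columns of 5 arrays that match no labelled sample.

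Of 31099 probe sets, 57 controls were left out and 31042 tested, of which 23369 name 14235 genes. A limma model (3.58.1, R 4.3.3) held a mean for each group of the 15 arrays, so that all groups shared 1 estimate of spread (12 residual degrees of freedom, 2.7 prior). Tests were two-sided, with Benjamini-Hochberg adjustment over all 31042, and passing means an adjusted p under 0.05. Differences are log2, pregnancy mean minus control mean, with the moderated standard error after the ± sign. P-values measure the spread between rats, and 5 arrays per group limit the precision. In simulated data of this comparison 200 of 31042 probe sets were changed. Of changes of 1 log2 unit 92.5% were recovered with 16 false calls, and of changes of 2 units 99.5% with 13. The simulated spread was independent among probe sets, without the lymph node and muscle differences that real arrays share. These rates need not hold for the real arrays, and a gene that did not pass is not shown to be unchanged.

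A gene is represented by its probe set with the highest mean over the 10 arrays. The text names genes past the threshold, with the level on every array for the 12 largest increases and 12 largest decreases that had a present call, genes whose present calls switched completely, members of 40 lists (706 of 765 symbols measured) that passed or had the smallest p up to 6, some fixed mammary genes, and the 6 genes most like Gpnmb. Levels on every array of other genes were chosen after their values were seen. The members and lists were chosen with earlier results of these data known. Lists are described by counts and medians, without a test. Where a group had no present call its level is not told from background, and where neither had, no size is given. Python 3.11.15, pandas 2.3.3 and numpy 2.4.6 served for tables. Alternatives were the 2 groups alone, centred medians, a filter on present calls, another estimate of spread, array weights, lymph node and muscle covariates, left-out arrays, a replicate block and other probe sets. The array annotation names no genome build, so positions are given for promoter windows only.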

Additional observations from a re-analysis of the deposited data

Results flagged for a closer look

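Of 136 groups of 5 arrays examined, 14 held an array far from the other 4 by Dixon's criterion, which chance alone meets in about 1 in 20 groups. Control 6 stood high for the milk genes Wfdc3 (5.64, others 4.88 to 5.08), Car2 (10.52, others 9.20 to 9.49) and Fabp3 (10.36, others 7.50 to 8.31), and low for Ttll3 (6.83, others 6.97 to 7.01). Wfdc3 had no present call in controls, so its levels there are not told from background. Control 5 stood low for Lilrb4 (7.13, others 7.36 to 7.45) and Ccl9 (6.69, others 7.36 to 7.47), and on the lists of clock genes (-0.3, others 0.0 to 0.11) and blood genes (-0.3, others -0.04 to 0.05). For Gria3, control 2 was low (6.50, others 7.08 to 7.16) and pregnancy 3 high (6.53, others 5.51 to 5.71). Fabp3 was high in pregnancy 7 (13.22, others 10.56 to 11.03). Pregnancy 7 was rich in muscle RNA (list level 1.87), and pregnancy 9, at 2.25, was among the others for Fabp3. A cause was not tested. Pregnancy 9, also rich in muscle RNA, was high on the cholesterol list (0.74, others -0.08 to 0.07) and the skin keratinocyte list (1.17, others -0.17 to 0.09), and pregnancy 1 on the resident macrophage list (0.26, others -0.07 to 0.01). List levels are mean log2 values relative to all arrays. Cbln2 differed between the pregnancy and hormone groups by -0.88 (limma, adjusted p = 0.0359), with the smallest hormone array, 8.11, above every pregnancy array.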

How the results depend on the processing

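Of 47 named genes with a passing probe set, all 47 kept their direction in each of the 26 alternatives that tested them (25 for Trem2, Cela1, Syt13 and Drc12, which the present-call filter removed). Direction had little room to change, since the groups did not overlap in 60 of the 61 passing probe sets. The number passing moved. For pregnancy against control, 61 became 8 with the 2 groups alone, 36 with a trended robust spread, 1154 with array weights, 291 with a lymph node covariate, 28 with a muscle covariate, 127 with both, 10 without the 4 lymphoid-rich arrays, 0 without the 3 muscle-rich arrays (2607 at an unadjusted p under 0.05) and 0 with the replicate block (3740 unadjusted). It stayed near with centred medians (41) and the present-call filter (55), and ran from 3 to 1430 when 1 array was left out. For pregnancy against hormone, 1 became 6 with the 2 groups alone, 4 with array weights or without the lymphoid-rich arrays, and 0 with the lymph node covariate, both covariates, without the muscle-rich arrays (1117 unadjusted) or with the replicate block (3053 unadjusted). Leaving out 1 array gave 0 to 9. The replicate block ties arrays by number, but only numbers 1 and 2 occur in both groups, their deviations correlated at 0.1 and 0.38, and no label says that a number marks a shared litter or day. The cause of these shifts was not tested.

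Among named genes, signs reversed only for differences far from the threshold or on other probe sets. Pgr (0.07) became -0.015 with the lymph node covariate, -0.038 with the muscle covariate, -0.077 with both and -0.71 without the lymphoid-rich arrays, and ran from -0.24 to 0.51 with 1 array left out. Areg (-0.19) became 0.42 and Wnt4 (-0.16) became 0.002 with the replicate block, and with 1 array left out they ran from -0.43 to 0.12 and from -0.34 to 0.0053. Ghr (0.32) became -0.059 with the block. Without the lymphoid-rich arrays Fcer2 (-1.17) became 0.75, Cd22 (-0.77) became 0.40, Gzma (0.67) became -0.011 and Top2a (0.20) became -0.086. Fcer2 and Cd22 belong to the lymph node list by which those arrays were picked. Of 28 other probe sets of passing genes, counting those with a present call and leaving out the MHC gene, 4 pointed the other way, those of Mbd5 (0.10), Xdh (-0.16), Men1 (0.038) and Zfp592 (0.10), 20 kept the direction without passing and 4 passed as well. Probe sets without a present call, or of the MHC gene, bring the genes with a probe set of opposite sign to 7 of 24. Several list medians near 0 also changed sign. The direction held in 19 of 26 alternatives for immediate early and heat shock genes. It held in 20 for the basal, EGF family and DNA replication lists, and in 21 for the IGF axis, Notch and clock lists. For hormone receptors and the TGF-beta pathway it held in 24. With the replicate block the median was 0.16 for adipocyte genes (0.35), 0.32 for acute phase genes (0.19), 0.28 for phagocytes (0.19) and -0.13 for other matrix genes (-0.21). Signals near the top of the array range, as for Csn2, Csn1s1, Csn3, Lalba and Tf, and signals without a present call limit what a difference can show.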
